A study of Canis lupus familiaris with 21 samples.

Results

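The genes described here were the 2 TOX factors TOX and TOX2, the inhibitory receptors LAG3, HAVCR2 (TIM-3), TIGIT, CD96 and BTLA, and the T-box factors EOMES and TBX21 (T-bet), measured across stages of canine cutaneous histiocytoma (CCH). These 9 genes were found by their symbols among the 21399 genes of the count tables. The set was chosen by the higher TOX2 counts of group 3 than of group 2b, which were known when it was drawn up. Values of that comparison are therefore a description without p-values, and the counts of calls given for it support nothing.

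CCH is a skin tumor of mostly young dogs that derives from Langerhans cells and usually regresses while lymphocytes infiltrate it. RNA of 21 formalin-fixed, paraffin-embedded samples was read by QuantSeq, which sequences the 3′ ends of polyadenylated transcripts. The samples came from privately owned dogs of both sexes and various breeds, and no treatment or genetic change was recorded for any group. Group 1 held 5 tumor cell-rich samples of stage 1, in which lymphocytes are absent by definition, from dogs of 0.5 to 5 years where an age was given. Group 2a held 5 samples of areas of stage 2 tumors chosen under the microscope for tumor cells, from dogs of 0.6 to 3 years. Group 2b held 6 samples of lymphocyte-rich areas of stage 2 tumors, from dogs of 0.3 to 6 years by the labels. The study's sample list gives no age under 0.5 years for this group. Of the 6 samples, 4 were pools of 3 or 4 dogs and 2 came from 1 dog each. Group 3 held 5 lymphocyte-rich samples of stage 3, in which the lymphocytes reach the tumor center, from dogs of 1.5 to 9 years. The other groups held no pools.

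TOX and TOX2 are nuclear proteins with an HMG box that bind DNA. TOX is needed for CD4 T cell development and is known for the state of T cells under lasting antigen contact, called exhaustion, while TOX2 is known from follicular helper T cells and natural killer cells. LAG3, HAVCR2, TIGIT, CD96 and BTLA are surface receptors that can dampen lymphocyte activation, and EOMES and TBX21 are paired regulators of cytotoxic lymphocyte differentiation. None of these genes is fully restricted to T cells, and BTLA is also a B cell receptor.

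In the UU_Cfam_GSD_1.0 assembly, TOX lies at chr29:10030303-10329882, TOX2 at chr24:32148382-32281033, EOMES at chr23:16774662-16810661 and TBX21 at chr9:24027863-24039741. LAG3 lies at chr27:7829072-7835123 and HAVCR2 at chr4:53905760-53918797. CD96, BTLA and TIGIT lie on the same chromosome, at chr33:16870215-16964480, chr33:17623933-17652223 and chr33:19131089-19146839. Counts were given per gene, so reads were not assigned to an exon or UTR. CD96 overlaps ZBED2 by 41170 bases, which had a median of 2.01 normalized counts and a highest value of 18.6. CD96 also overlaps LOC111093757 by 10633 bases. TOX overlaps LOC102154479 by 59361 bases, LOC119866702 by 37221 bases and LOC102152621 by 10 bases. The last had a median of 8.35 normalized counts, and the other LOC entries were not analysed here. Reads of such overlapping genes are uncertain, because the strand setting of the counting was not given in the sources used here.

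The samples held 2113393 to 3559404 reads on genes (median 2514859). DV200, the percentage of RNA fragments over 200 nucleotides, averaged 68.5% ± 2.46 (SD, n = 5) in group 1 and between 73.2% and 74.6% in the other groups, by the labels. For replicate 5 of group 3 the study's sample list differs from the label, whose value was used. In that list the RNA quality number, another measure of RNA integrity, was higher in every sample of group 2a than in every sample of group 2b, so that it and the area cannot be told apart. Apart from replicate 1, every sample of group 2b also had a lower RNA quality number than every sample of group 3. Its part in the values of groups 3 and 2b was not tested. The lymphocyte content was followed by the summed normalized counts of CD3D, CD3E and CD3G, the invariant chains of the T cell receptor complex. This CD3 sum was 12.3, 355, 1104, 667 and 104 in group 1 (replicates 1 to 5) and 262 to 871 in group 2a. It was 1444 to 2328 in group 2b and 1620 to 2347 in group 3. Group 1 was thus not uniformly free of T cell transcripts: its replicate 3 lay above every sample of group 2a, and its replicates 2, 3 and 4 lay above the group 2a median of 299. The fold changes of the 9 genes between groups 2a and 1 are given with and without replicates 3 and 4, the highest of group 1, while other values that use group 1 include them. CD4 was at or near 0 in all groups, with no value above 2.01 normalized counts. From group 2a to group 2b the mean of CD8B went from 112 ± 70.1 to 610.1 ± 197 and that of CD8A from 3.43 ± 4.02 to 12.6 ± 4.67 normalized counts (SD, n = 5 and 6). MS4A1, the B cell antigen CD20, was listed at 0 in every sample of groups 1 and 2a.

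All values by sample below are normalized counts, that is, raw counts divided by 1 size factor per sample, and they compare groups within a gene, not genes with each other. Fold changes and their standard errors are log2 values from edgeR's quasi-likelihood fit over all tested genes. A gene was called when its log2 fold change reached 1 in either direction and its p, adjusted by Benjamini-Hochberg over all tested genes, did not exceed 0.05. Only genes reaching 10 counts in 5 or more samples of a comparison were tested, which held for 8 of the 9 genes in each comparison and left out HAVCR2.

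Within stage 2, the 8 tested genes separated into those called higher in the lymphocyte-rich areas and those not called. Groups 2b and 2a differ in area within stage 2 but also in pooling, and the study's sample list gives no tumor in both. In group 2b compared with group 2a, 6 of the 8 tested genes were called higher and 0 lower. These were EOMES, TOX2, CD96, LAG3, BTLA and TIGIT, of which TOX2 alone stayed called when group 2b was reduced to its 2 single-dog samples. Of all 11545 genes tested in this comparison, 9.55% were called, and 5.98% were called higher. The median log2 fold change was 1.64 for the 8 genes and -0.01 for all tested genes. Of the 9 genes, 7 reached 10 counts in every sample of group 2a as well, so that they passed the filter in both areas. TBX21 passed it through group 2b. Fewer T cells and less RNA per T cell cannot be told apart in these bulk samples. The p-values measure the spread between samples, and 4 of the 6 samples of group 2b average over several dogs.

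**Figure D1:**
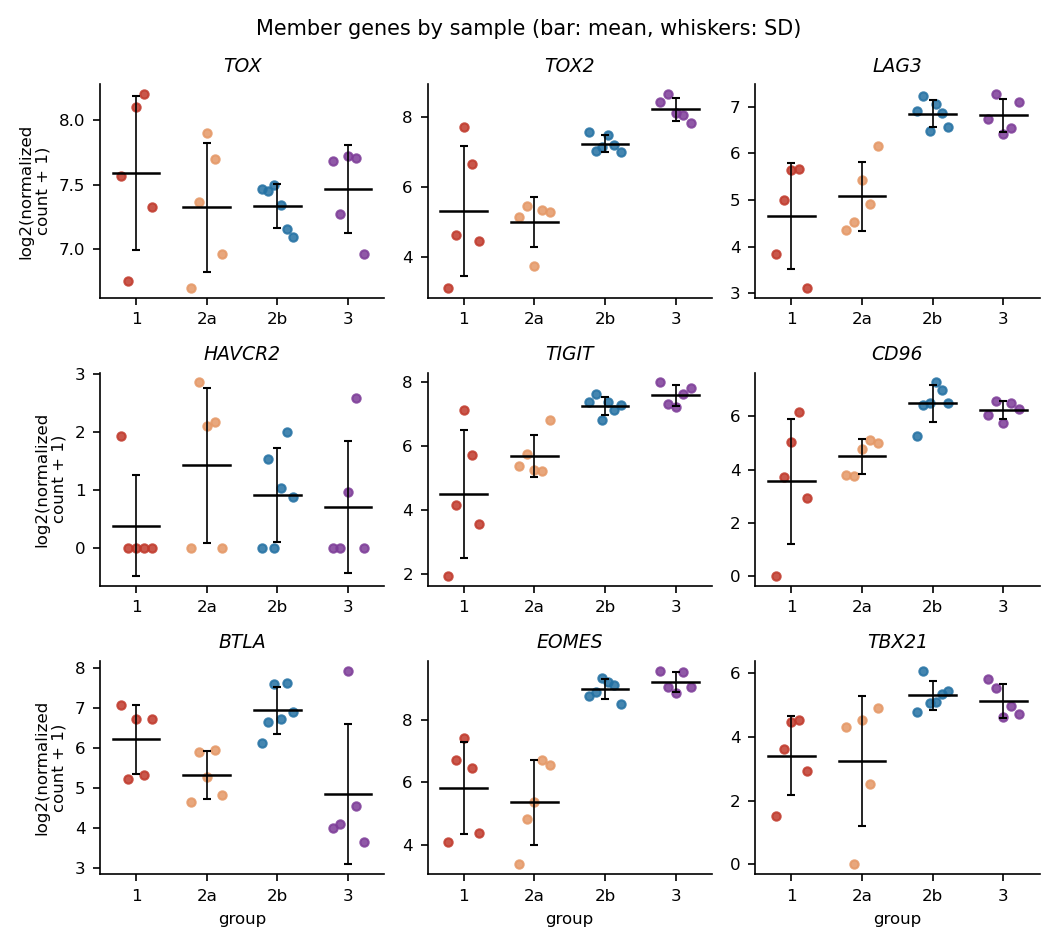
Normalized counts of the 9 genes by sample, on the vertical axis as log2(normalized count + 1) with its own range for each gene, against the 4 groups on the horizontal axis. Points are samples, bars are group means and whiskers are SDs (n = 5, 5, 6 and 5). TOX2 rose in a step from group 2a to 2b and was higher again in group 3, TOX overlapped across all groups, and 1 sample of group 3 stood far above the others for BTLA.

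Among the transcription factors, EOMES, a T-box factor of cytotoxic and memory T cells, had the largest log2 fold change between areas among the 8 tested genes. It was at 16.1, 104, 171, 86.6 and 19.7 in group 1 (replicates 1 to 5) and at 9.28, 27.1, 40.0, 103 and 92.0 in group 2a. In group 2b it ranged from 363 to 655 with a median of 519, and in group 3 it was at 765, 535, 465.6, 748 and 529. Every sample of the lymphocyte-rich groups was thus above every sample of the tumor cell-rich groups. The group means were 79.5 ± 64.5, 54.3 ± 41.1, 515 ± 109 and 608 ± 138 (SD, n = 5, 5, 6 and 5). The log2 fold change of group 2b against group 2a was 3.25 ± 0.446 (SE; edgeR adjusted p = 0.000335). With group 2b reduced to its 2 single-dog samples it was 3.07 and missed the threshold (edgeR adjusted p = 0.0531).

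TOX2 was low in tumor cell-rich areas, apart from 2 samples of group 1. It was at 7.56, 23.4, 210.4, 100.8 and 20.8 in group 1 and at 34.3, 42.7, 12.2, 39.8 and 37.8 in group 2a. The 6 samples of group 2b ranged from 126 to 190.4 with a median of 143, and those of group 3 were at 349, 406, 277, 270.0 and 228. The 2 high samples of group 1 were replicates 3 and 4, the same samples that had the highest CD3 sums of that group. No sample of group 2b overlapped with group 2a or with group 3. The means were 72.6 ± 85.3, 33.4 ± 12.2, 152 ± 26.7 and 306 ± 70.5 (SD, n = 5, 5, 6 and 5). TOX2 rose from group 2a to group 2b by 2.18 ± 0.259 on the log2 scale (SE; edgeR adjusted p = 0.000114). This call also held when the pools of group 2b were left out, at 2.25 (edgeR adjusted p = 0.0329).

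TOX, the founding member of the family, behaved differently from TOX2. It was at 189, 107, 274, 294 and 160 in group 1 and at 103, 164, 238, 207 and 124 in group 2a. Group 2b ranged from 136 to 179.7 with a median of 168, and group 3 held 205, 154, 210.5, 208 and 124. The 4 groups overlapped, and no neighbouring pair in the order of means (2b, 2a, 3, 1) was separated. The means were 205 ± 78.5, 167 ± 56.0, 162 ± 18.8 and 180.0 ± 39.3 (SD, n = 5, 5, 6 and 5). Between group 2b and group 2a the log2 fold change was -0.05 ± 0.202 (SE; edgeR adjusted p = 0.899), and it changed sign with the choice of scaling or samples, within -0.19 to 0.11.

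TBX21, a T-box factor of type 1 helper and cytotoxic cells, gave few counts. It was at 1.89, 11.2, 20.9, 22.04 and 6.56 in group 1 and at 18.6, 0, 22.2, 4.68 and 29.1 in group 2a. In group 2b it ranged from 26.1 to 66.1 with a median of 36.0, and in group 3 it was at 55.0, 45.3, 23.3, 30.2 and 25.1. The lymphocyte-rich groups had the higher means, 39.8 ± 14.0 (SD, n = 6) and 35.8 ± 13.8 (SD, n = 5), against 14.9 ± 12.2 and 12.5 ± 8.83 (SD, n = 5 each), but replicate 5 of group 2a overlapped with them. The log2 fold change of 1.39 ± 0.577 (SE) between group 2b and group 2a missed the threshold in edgeR (adjusted p = 0.120). It passed in DESeq2, at 1.41, and in limma with a pseudocount of 5, at 1.43.

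Among the receptors, LAG3, a CD4-related receptor that binds MHC class II, was separated by area and not by stage. It was at 13.2, 30.9, 49.2, 49.6 and 7.65 in group 1 and at 19.5, 21.9, 42.2, 29.2 and 70.7 in group 2a. The range in group 2b was 87.5 to 148 with a median of 117, and in group 3 it was at 105, 153, 84.4, 91.7 and 136. All 11 lymphocyte-rich samples were above all 10 tumor cell-rich samples, while groups 2b and 3 overlapped. LAG3 rose from a mean of 36.7 ± 20.96 (SD, n = 5) in group 2a to 116 ± 22.9 (SD, n = 6) in group 2b, by 1.64 ± 0.307 on the log2 scale (SE; edgeR adjusted p = 0.00234). Without the pools of group 2b it was 1.85 and not called (edgeR adjusted p = 0.0813).

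TIGIT, which competes with the activating receptor CD226 for the ligands PVR and NECTIN2, had an overlapping sample in each tumor cell-rich group. It was at 2.83, 16.8, 137, 51.2 and 10.9 in group 1 and at 40.8, 53.1, 36.7, 36.3 and 111 in group 2a. In group 2b it ranged from 109.8 to 194 with a median of 158, and in group 3 it was at 251, 156, 146, 196 and 219.9. Replicate 3 of group 1 and replicate 5 of group 2a, each with the highest CD3 sum of its group, reached into the range of group 2b. The means were 43.7 ± 55.1, 55.6 ± 31.9, 154 ± 28.4 and 194 ± 43.7 (SD, n = 5, 5, 6 and 5), and TIGIT rose from group 2a to group 2b by 1.45 ± 0.286 on the log2 scale (SE; edgeR adjusted p = 0.00329). The call was lost without the pools of group 2b, at 1.67 (edgeR adjusted p = 0.0897), and with all 4 groups in 1 fit (edgeR adjusted p = 0.0706).

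CD96, a receptor of T and natural killer cells for PVR, was at 0, 12.2, 31.9, 70.8 and 6.56 in group 1 and at 13.0, 12.5, 26.7, 33.9 and 31.0 in group 2a. Group 2b ranged from 37.3 to 154 with a median of 89.8, and group 3 was at 65.0, 93.4, 53.3, 89.7 and 76.4. Groups 2a and 2b did not overlap, whereas replicate 4 of group 1 reached into the range of both lymphocyte-rich groups. CD96 rose from a mean of 23.4 ± 10.1 (SD, n = 5) in group 2a to 97.3 ± 39.9 (SD, n = 6) in group 2b, by 2.05 ± 0.367 on the log2 scale (SE; edgeR adjusted p = 0.00180). Without the pools of group 2b it was 1.38 and not called (edgeR adjusted p = 0.213).

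BTLA, a receptor of B and T cells, had a sample in group 3 that stood far from the others. It was at 132, 36.5, 104, 38.6 and 105 in group 1 and at 24.1, 58.4, 37.8, 60.8 and 27.1 in group 2a. In group 2b it ranged from 68.1 to 194 with a median of 111, and in group 3 it was at 15.0, 16.0, 242, 22.2 and 11.5. In group 3, replicate 3 was the highest of all 21 samples, and the other 4 samples were below every sample of the other groups. The same replicate 3 held 1328 summed normalized counts of the B cell markers, against 119 to 389 in the rest of group 3 and 674 to 1560 in group 2b. The part of B cells in these BTLA values was not tested. BTLA rose from a mean of 41.6 ± 17.2 (SD, n = 5) in group 2a to 129.7 ± 52.3 (SD, n = 6) in group 2b, by 1.64 ± 0.324 on the log2 scale (SE; edgeR adjusted p = 0.00335). The call was lost without the pools of group 2b, at 1.00 (edgeR adjusted p = 0.271), and with all 4 groups in 1 fit (edgeR adjusted p = 0.0954).

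HAVCR2, a receptor for galectin-9 also found on myeloid cells, was close to the limit of this depth. It had 0 counts in 11 of the 21 samples and at most 6 counts in any sample. Over the samples of a group its counts summed to 3, 12, 7 and 6, in the order 1, 2a, 2b and 3. More than 3 counts were found in 1 sample of group 2a and 1 sample of group 3, and differences between groups were not detectable at this depth.

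By sample, 5 of the 8 tested genes (TOX2, LAG3, CD96, BTLA and EOMES) did not overlap between group 2b and group 2a, all of them higher in group 2b. The share of all tested genes that did not overlap was 10.5%, and 6.07% did not overlap and were higher in group 2b. T cell, NK and cytotoxic, and B cell transcripts moved with this comparison. Of the T cell markers, 13 of 14 tested were called higher and 0 lower, with a median log2 fold change of 2.21. Of the NK and cytotoxic cell markers, 6 of 9 were called higher, with a median of 1.90, although the NK cell receptor NCR1 was at or near 0 in all groups. Of the B cell markers, 6 of 8 were called higher, with a median of 4.30. Between groups 2a and 1, 10 T cell, 7 NK and cytotoxic and 2 B cell markers reached the count filter. The rest passed it here only with the counts of group 2b, so these counts and medians are a description. The keratinocyte markers had 0 of 10 called by edgeR, of which KRT10 at -1.31 came close (adjusted p = 0.0513). The part of cell numbers in the differences of the receptors was not tested by these counts, and each gene was therefore also set against the CD3 sum of its own sample.

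**Figure D2:**
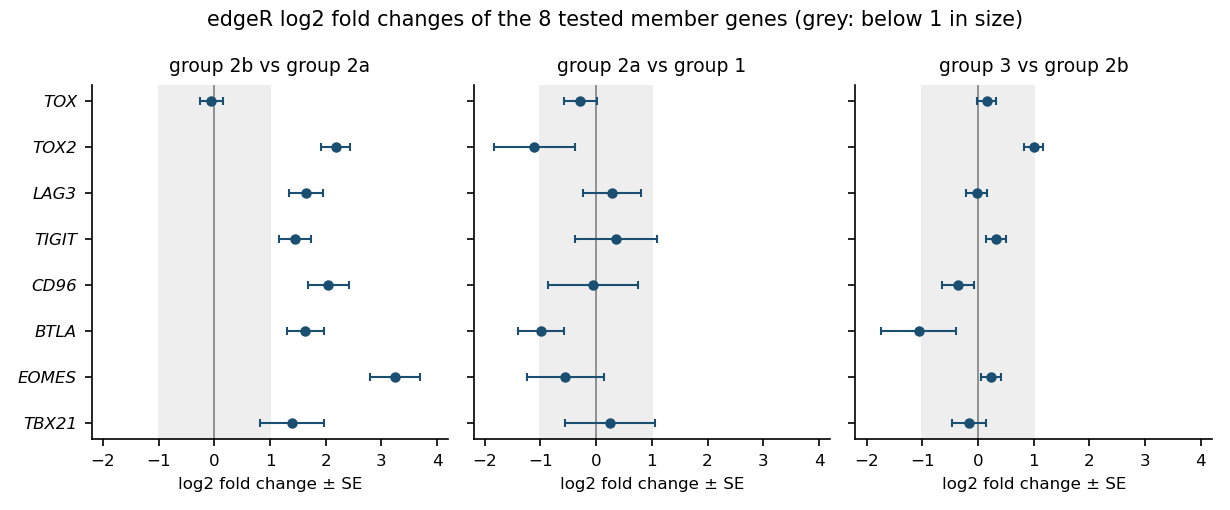
Log2 fold changes of the 8 tested genes (horizontal axis, edgeR, with the SE as error bars) in group 2b vs 2a, group 2a vs 1 and group 3 vs 2b; the grey band marks changes below 1 in size. In the left panel 7 of the 8 points lie beyond 1, in the middle panel 6 of the 8 error bars cross 0, and in the right panel TOX2 lies at 1.00 and BTLA at -1.06.

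The tumor cell-rich areas of stages 1 and 2 were compared next, with group 2a shared between this comparison and the one above. None of the 8 tested genes was called in edgeR, DESeq2 or limma, and 0 did not overlap, where 0.393% of all 11200 tested genes were called in edgeR and 5.65% did not overlap. BTLA was the only one of the 8 with an unadjusted edgeR p under 0.05, at a log2 fold change of -0.99 ± 0.413 (SE; unadjusted p = 0.0331, edgeR adjusted p = 0.232). TOX2 had the largest difference in size, -1.11 ± 0.725 (SE; edgeR adjusted p = 0.458). This value rested on replicates 3 and 4 of group 1. Without both samples it was 0.96, and the values of EOMES, TOX and CD96 also changed sign, to 0.22, 0.14 and 1.89. TIGIT, LAG3 and TBX21 were then at 2.45, 1.08 and 1.19 and BTLA at -1.13, again with 0 of the 8 called in edgeR. The smallest edgeR adjusted p without both samples was 0.0886, for TIGIT. With all samples, EOMES was at -0.55 ± 0.691, TIGIT at 0.36 ± 0.744, LAG3 at 0.29 ± 0.522, TOX at -0.29 ± 0.298, TBX21 at 0.25 ± 0.807 and CD96 at -0.06 ± 0.806 (log2 fold change ± SE). For 5 of these 6 genes the SE was larger than 0.5. The keratinocyte markers had a median log2 fold change of -2.004 in the same comparison, with 0 of 10 called by edgeR, and their part in these values was not tested.

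The lymphocyte-rich areas of stages 2 and 3 were compared with group 2b shared between this comparison and that of the areas. TOX2 was at least 228 in group 3 and at most 190.4 in group 2b, and its log2 fold change was 1.00 ± 0.171 (SE). It was the 1 gene of the 8 that was called and the 1 that did not overlap, where 0.0428% of all 11685 tested genes were called and 2.11% did not overlap. Since this difference led to the choice of genes, nothing is read from the count. Leaving out any sample gave a log2 fold change of 0.88 to 1.10, and other scalings, tools and sample choices gave 0.93 to 1.08. The call itself was lost without replicate 2, 3, 5 or 6 of group 2b or replicate 1, 2 or 4 of group 3, when the count of called genes among the 8 fell to 0. TOX, its relative, was at 0.15 ± 0.165 (log2 fold change ± SE) in this comparison.

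The remaining genes differed little between group 3 and group 2b, except for BTLA. The log2 fold changes were 0.33 ± 0.177 for TIGIT, 0.24 ± 0.176 for EOMES, -0.03 ± 0.197 for LAG3, -0.16 ± 0.308 for TBX21 and -0.37 ± 0.286 for CD96 (± SE). BTLA was at -1.06 ± 0.675 (SE), and at -2.99 without replicate 3 of group 3. The median over the 8 genes was 0.06, against 0.01 over all tested genes. The CD3 sums of the 2 groups overlapped, the B cell markers had a median log2 fold change of -1.33 and the keratinocyte markers one of 1.97, with 0 called in either list. The keratinocyte sum ranged from 206 to 2410 in group 2b and from 758 to 7484 in group 3, and its part in the values of this comparison was not tested.

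Set against T cell transcripts of the same sample, most of the area differences became smaller or changed direction. The value used was the normalized count of a gene per 100 counts of the CD3 sum, and differences are of log2((count + 1) / (CD3 sum + 1)). This ratio leaves out the changes shared with CD3D, CD3E and CD3G, and it does not correct for other cells that express a gene. CD3D, CD3E and CD3G rose by 2.11, 2.03 and 2.02 in group 2b against group 2a (log2 fold change, edgeR). A gene that rose by less therefore falls on this scale by arithmetic. In group 1, replicate 1 had a CD3 sum of 12.3, so that its ratios rest on few reads.

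EOMES per 100 CD3 counts was higher in most samples of group 2b than of group 2a, but not than in all of group 1. Its ratio was 130.8, 29.3, 15.5, 13.0 and 18.9 in group 1, where replicate 2 lay within the range of group 2b and replicate 1 above it. It was 3.13, 9.06, 15.3, 24.2 and 10.6 in group 2a, and 21.9 to 34.9 with a median of 28.4 in group 2b. In group 3 it was 33.9, 33.02, 28.0, 31.8 and 22.6. Groups 2a and 2b overlapped through replicate 4 of group 2a alone. The difference of the log2 ratio was 1.43 ± 0.439 (SE) between groups 2b and 2a, and 0.06 ± 0.150 between groups 3 and 2b. The mean log2 ratio was -1.87 in group 1 and -1.81 in group 2b, but that of group 1 is raised by replicate 1 with its few CD3 reads. The median ratio was 18.9 in group 1 and 28.4 in group 2b.

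TOX2 per 100 CD3 counts was 11.6, 14.3, 4.66, 9.34 and 4.34 in group 2a, and 7.28 to 13.2 with a median of 7.69 in group 2b. In group 3 it was 15.5, 25.04, 16.7, 11.5 and 9.77. Groups 2a and 2b overlapped widely, with a difference of 0.06 ± 0.339 (log2, SE). Groups 3 and 2b overlapped through replicate 1 of group 2b at 13.2, with a difference of 0.81 ± 0.257 (log2, SE). As on the other scale, the values of group 3 against group 2b are a description.

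TOX per 100 CD3 counts was 34.7, 54.7, 90.7, 48.6 and 14.2 in group 2a, and 6.93 to 12.2 with a median of 9.02 in group 2b. In group 1 its median was 44.0, and in group 3 it ranged from 5.29 to 12.7. The ratio was lower in every sample of group 2b than in every sample of group 2a, by 2.19 ± 0.418 on the log2 scale (SE). TOX was the 1 gene of the 8 that did not overlap between these groups on this scale, where 69.5% of all tested genes were also lower without overlap and 0.182% were higher without overlap. On this scale any gene with unchanged counts falls as CD3 rises, and nothing particular to TOX is read from its fall.

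Of the receptors, none was separated between groups 2b and 2a on this scale. TIGIT averaged 13.4 ± 3.31 per 100 CD3 counts in the tumor cell-rich areas (SD, n = 5) and 8.76 ± 2.17 in the lymphocyte-rich ones (SD, n = 6). Its log2 difference was -0.63 ± 0.227 (SE). LAG3 was at -0.43 ± 0.258, BTLA at -0.58 ± 0.493 and CD96 at -0.20 ± 0.353 (log2 difference, SE). As for TOX, such falls follow from the rise of CD3, and nothing particular to the receptors is read from them. Between groups 3 and 2b, TIGIT differed by 0.14 ± 0.178, LAG3 by -0.22 ± 0.244 and CD96 by -0.45 ± 0.287. BTLA had a median of 0.944 per 100 CD3 counts in group 3 and of 6.35 in group 2b, with replicate 3 of group 3 at 14.6. Between groups 2a and 1, 0 of the 8 genes were separated, where 0.0446% of all tested genes were, and between groups 3 and 2b 0 were, where 0.907% of all tested genes were.

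**Figure D3:**
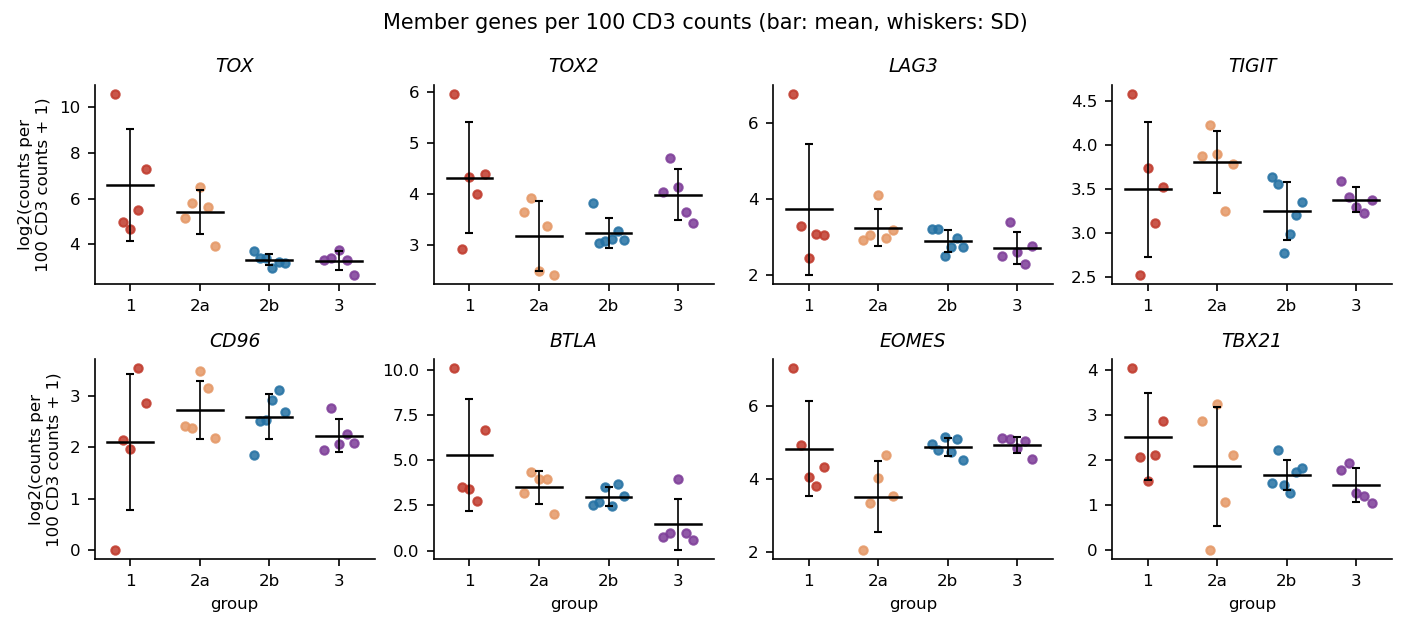
The 8 tested genes per 100 summed normalized counts of CD3D, CD3E and CD3G, on the vertical axis as log2(value + 1), by group on the horizontal axis; points are samples, bars group means and whiskers SDs (n = 5, 5, 6 and 5). EOMES is higher in groups 2b and 3 than in most samples of group 2a, TOX is lower in them than in group 2a, and the top point of group 1 in most panels is replicate 1, whose CD3 sum was 12.3.

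The likeness of the genes to T cell transcripts was also followed within groups, by Pearson's r of log2(normalized count + 1) over the 21 samples after the mean of each group had been subtracted. The samples share size factors and libraries, and these values are given as a description. With the CD3 sum, r was 0.918 for TIGIT, 0.891 for CD96, 0.823 for TOX2, 0.762 for EOMES, 0.696 for LAG3 and 0.544 for TBX21. It was 0.160 for TOX and -0.275 for BTLA. For 5 to 95% of all genes, the r with the CD3 sum ran from -0.376 to 0.467, with a median of -0.004. The 2 samples whose CD3 sums lay farthest from their group means on the log2 scale were then left out. Without them, r was lower for TIGIT (0.778), CD96 (0.755), EOMES (0.690), TOX2 (0.521) and TBX21 (0.378), and higher for LAG3 (0.749). By ranks the correlation was 0.835 for EOMES, 0.700 for CD96, 0.657 for TIGIT, 0.638 for LAG3, 0.403 for TOX2 and 0.397 for TBX21.

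BTLA was unlike the other receptors in this respect. Its r was 0.826 with the summed B cell markers (rank correlation 0.655). This r was 0.612 without the 2 samples whose B cell sums lay farthest from their group means, and 0.532 without replicate 3 of group 3. BANK1, a gene of this sum, averaged 104 of a mean sum of 140 in group 1 and 125 of 162 in group 2a. It was at 0.14 ± 0.335 in group 2b against group 2a (log2 fold change ± SE; edgeR adjusted p = 0.832), where 6 of 8 B cell markers were called higher. The r of BTLA with the sum thus rests largely on BANK1 in groups 1 and 2a, and the sum without BANK1 was not tested. With LAG3, TIGIT and CD96 the r of BTLA was -0.398, -0.264 and -0.244. The r of TIGIT with TOX2 was 0.877 (rank correlation 0.547), that of CD96 with EOMES 0.705 (0.764) and that of TOX with TOX2 0.330.

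**Figure D4:**
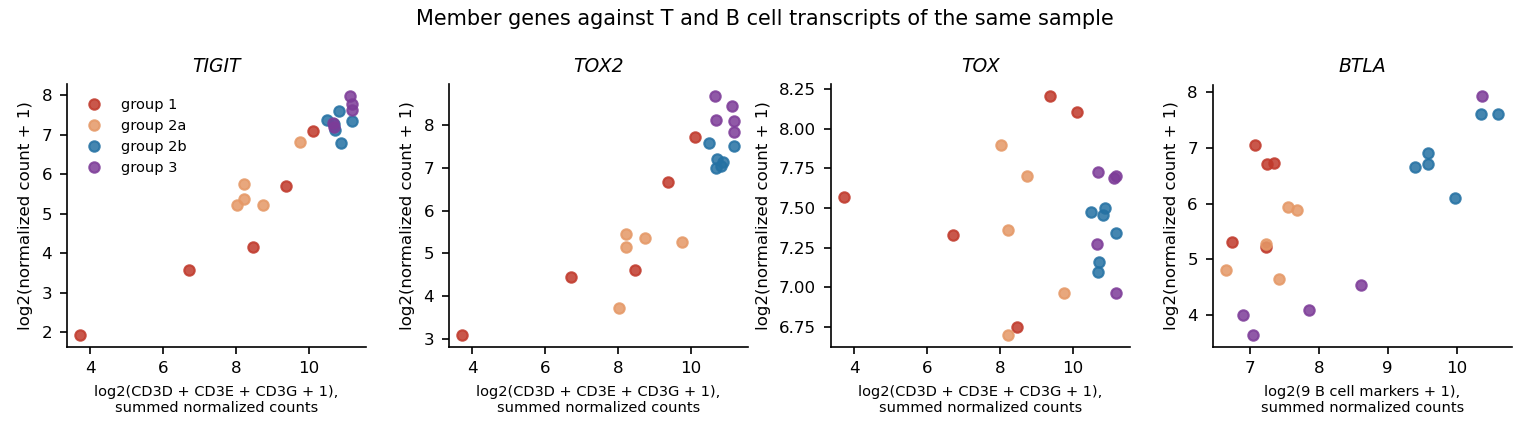
Normalized counts of TIGIT, TOX2 and TOX against the CD3 sum, and of BTLA against 9 summed B cell markers, as log2(value + 1) on both axes, with 1 point per sample colored by group. TIGIT and TOX2 climb with the CD3 sum within group 1 as well as between areas. TOX does not climb between areas. Within group 1 it is highest in replicates 3 and 4, which had the highest CD3 sums of that group. The 1 group 3 sample with high BTLA lies among group 2b for B cell markers.

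The 3 genes most like each of the 8 within groups were taken from 12505 genes, as a description. For TIGIT these were ZAP70 (r = 0.947), CD3D (0.933) and CLEC2D (0.925), and for CD96 they were LCK (0.931), TNIK (0.921) and CD27 (0.914). ZAP70 and LCK are kinases of T cell receptor signaling. For TOX2 they were LOC119866233 (0.913), ZAP70 (0.881) and TIGIT (0.877), and for EOMES SERINC4 (0.897), LAT (0.886) and P2RX5 (0.885). For LAG3 they were RALGPS1 (0.871), SPN (0.862) and MYB (0.861). For BTLA they were GOLM1 (0.798), BANK1 (0.798) and AFF3 (0.795). BANK1 is a B cell scaffold protein, but its counts did not follow the other B cell markers between groups 2a and 2b. For TOX they included JADE2 (0.853) and GPR146 (0.851), and for TBX21 they were IFNAR2 (0.825), LOC111096980 (0.821) and HDAC7 (0.817). By ranks, in the same order, the correlations were 0.629, 0.574 and 0.626 for TIGIT and 0.831, 0.790 and 0.773 for CD96. They were 0.795, 0.534 and 0.547 for TOX2, 0.917, 0.838 and 0.849 for EOMES, and 0.857, 0.760 and 0.770 for LAG3. For BTLA they were 0.581, 0.736 and 0.739, for TOX 0.839 and 0.792, and for TBX21 0.674, 0.700 and 0.786.

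Other genes of the same pathways were followed in group 2b against group 2a by lists drawn up for this purpose. Of the ligands and paired receptors of the 9 genes, 2 of 10 tested were called higher and 0 lower, with a median log2 fold change of 0.22. The 2 were lymphocyte receptors themselves. They averaged 6.40 ± 3.23 (CD160) and 9.31 ± 2.47 (CD226) normalized counts in group 2a (SD, n = 5). Both passed the count filter only with the counts of group 2b, so their values are a description. CD160, which shares a ligand with BTLA, rose by 3.12 ± 0.520 (SE; edgeR adjusted p = 0.00118), and CD226, the activating counterpart of TIGIT, by 1.71 ± 0.324 (edgeR adjusted p = 0.00257). LGALS9 (galectin-9), a ligand of HAVCR2, passed the adjusted p but not the fold, at 0.88 ± 0.167 (SE; edgeR adjusted p = 0.00263), and is named after its values were seen. The ligands of TIGIT did not pass the test, with PVR at -0.16 ± 0.250 and NECTIN2 at -0.19 ± 0.167 (log2 fold change ± SE). HMGB1 and LGALS3 (galectin-3), the most abundant of those not called, were at -0.31 ± 0.141 and -0.56 ± 0.397.

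Of the other inhibitory receptors, 4 of 10 tested were called higher and 2 lower. CD5 rose by 2.52 ± 0.334 (SE), LAIR1 by 2.14 ± 0.407, CTLA4 by 1.77 ± 0.366 and CD72, a B cell receptor, by 1.57 ± 0.381, with edgeR adjusted p-values of 0.000244, 0.00262, 0.00460 and 0.0117. The 2 that fell were KLRG1, at -1.39 ± 0.305, and ENTPD1 (CD39), at -1.38 ± 0.291 (edgeR adjusted p = 0.00667 and 0.00523), which are named because they were the only ones lower. ENTPD1 was kept in this list although it is a cell surface enzyme and not a receptor. CD22 and VSIR, the most abundant of those not called, were at -0.01 ± 0.205 and -0.32 ± 0.199.

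Of the other transcription factors of T cell state, 5 of 19 tested were called higher and 1 lower, with a median log2 fold change of 0.57. TCF7 (TCF-1), a factor of naive and stem-like T cells, rose by 3.32 ± 0.289 (SE), from 22.3 ± 10.7 (SD, n = 5) to 226 ± 61.0 normalized counts (SD, n = 6; edgeR adjusted p = 1.29e-05). BACH2 rose by 3.01 ± 0.387, KLF2 by 2.33 ± 0.256 and IKZF2 by 1.63 ± 0.391 (edgeR adjusted p = 0.000194, 7.52e-05 and 0.0110). The gene called lower was NR4A1, an early response gene of receptor signaling, at -1.35 ± 0.371 (edgeR adjusted p = 0.0230). RUNX3 and ZEB2 passed the adjusted p but not the fold, at -0.61 ± 0.126 and 0.73 ± 0.213, and TOX4, a broadly expressed relative of TOX, was at 0.49 ± 0.166 (edgeR adjusted p = 0.0576).

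Of the follicular helper T cell genes, 5 of 8 tested were called higher and 0 lower, with a median log2 fold change of 2.58. Between groups 2a and 1, 5 of these genes reached the count filter. The others, CXCR5 and IL21 among them, passed it here only with the counts of group 2b. Nothing is therefore read from this count and median, or from the p-values of those genes. CXCR5, the receptor for the B cell follicle chemokine CXCL13, rose by 6.21 ± 0.435 (SE), from 1.71 ± 1.08 (SD, n = 5) to 133 ± 57.3 normalized counts (SD, n = 6; edgeR adjusted p = 6.41e-06). CXCL13 rose by 4.55 ± 0.512, IL21 by 2.88 ± 0.575 and SH2D1A by 2.82 ± 0.439 (edgeR adjusted p = 8.66e-05, 0.00359 and 0.000749). Transcripts of B cells moved alike in the same samples, CD79B from 5.97 ± 4.60 (SD, n = 5) to 264 ± 110 (SD, n = 6) and PAX5 from 5.72 ± 5.70 to 216 ± 72.7 normalized counts.

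Between stages, 0 genes of these 4 lists were called by edgeR in either pair of like areas. Of the follicular helper genes, CXCL13 was at -2.01 ± 0.725 between groups 3 and 2b (log2 fold change ± SE; edgeR adjusted p = 0.269), in the direction of the B cell markers. KLF2 was at -0.67 ± 0.227 in that comparison (edgeR adjusted p = 0.244).

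**Figure D5:**
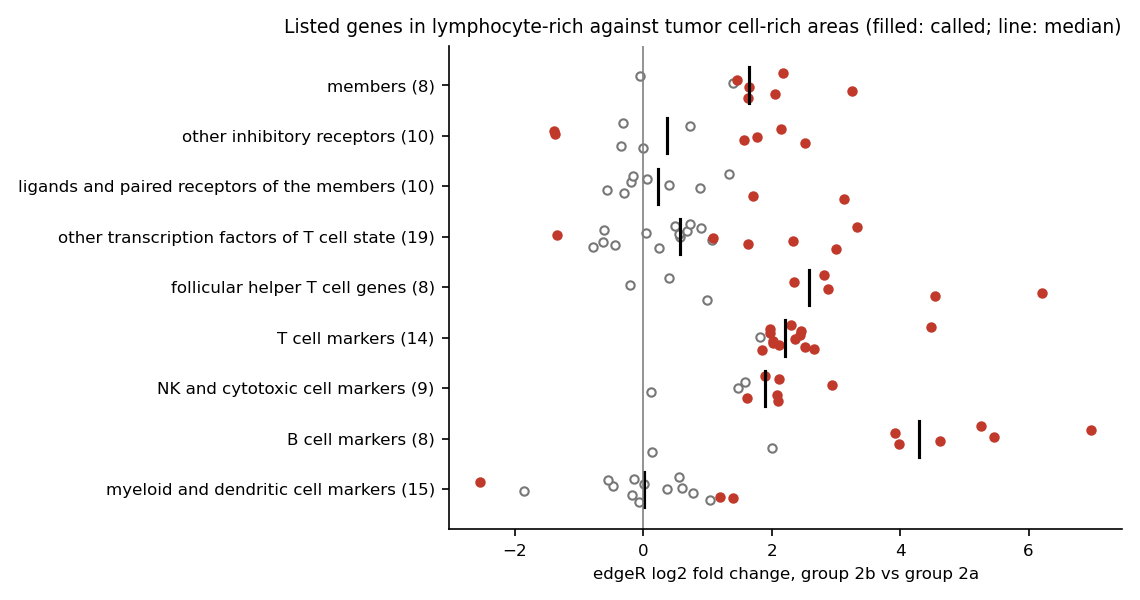
Log2 fold changes in group 2b vs group 2a (horizontal axis, edgeR) for the tested genes of each list, with the number tested in brackets; filled points are called genes and black lines list medians. The median of the 8 genes lies at 1.64, between those of the ligands (0.22) and other inhibitory receptors (0.36) on 1 side and those of the T cell markers (2.21) and B cell markers (4.30) on the other. Part of the listed genes passed the count filter only with the counts of group 2b.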

How the data were processed

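Reads were preprocessed by the authors in cutadapt, STAR placed them on UU_Cfam_GSD_1.0, and the authors' own comparisons used DESeq2. The submitters' processing notes name featureCounts for the counting, and its settings and the versions of these tools were not given in the sources used here. For every gene and sample the authors deposited a count and a normalized value (entered as a signal). Each normalized value was the count over a size factor of its sample, 0.855 to 1.27, and counts were identical between the deposited tables. There are further deposited columns, for each of their comparisons, a log2 fold change with and without shrinkage, its standard error (entered as a score), a p-value and an adjusted p-value, none of which was used. All 21399 entries matched symbols of the RefSeq gene table of the same assembly, which gave the positions.

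Raw counts were tested in edgeR 4.0.16 under R 4.3.3 with TMM factors and the quasi-likelihood F-test, on the samples of the compared groups only. Tested genes reached 10 counts in 5 or more samples, and the SE is the log2 fold change divided by the square root of F. DESeq2 1.42.0, limma 3.58.1 on log2(normalized count + pseudocount), other scalings and filters, DV200 as a covariate, all groups in 1 fit, the pools or single-dog samples of group 2b and omission of each sample served as alternatives. Likeness and ratios were computed in Python 3.11.15 with numpy 2.4.6 and pandas 2.3.3, with a pseudocount of 1. Depth limits a value of 3 counts or fewer, and this covers counting error only.

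The 9 genes are named in every comparison. From each list of related genes, up to 4 called genes with the largest log2 fold change and up to 2 abundant genes not called are named, with 3 genes most like each of the 8 tested, of which 1 for TOX is not reported here. CD3D, CD3E and CD3G served as the scale for T cells. The genes, lists and comparisons were chosen with earlier results of these data known. Of 153 listed genes, 144 were in the tables, and the others (TNFSF14, CD200R1, FCRL3, SIRPG, TOX3, FOXP3, XCL1, CR2 and CLEC10A) were not analysed here. The fitting was tested on simulated data.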

Additional observations from a re-analysis of the deposited data

Results flagged for a closer look

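Of 68 sets of samples, each 1 gene in 1 group on 1 of the 2 scales, 13 held a sample that stood apart from the rest of its group by Dixon's criterion, which chance meets in about 1 of 20 sets. On the scale of normalized counts, BTLA was at 242 in replicate 3 of group 3, with the other samples at 11.5 to 22.2. TIGIT was at 111 in replicate 5 of group 2a, with the others at 36.3 to 53.1, and TOX2 was at 12.2 in replicate 3 of group 2a, with the others at 34.3 to 42.7. HAVCR2 stood apart at 2.83 in replicate 1 of group 1 and at 5.04 in replicate 4 of group 3, both on 5 or fewer reads.

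Per 100 CD3 counts, 5 of the 8 sets came from replicate 1 of group 1, whose CD3 sum was 12.3. There TOX was at 1538, TOX2 at 61.5, LAG3 at 107.7, BTLA at 1077 and EOMES at 130.8. TOX2 was at 13.2 in replicate 1 of group 2b, with the others at 7.28 to 8.72. LAG3 was at 16.1 in replicate 3 of group 2a, with the others at 6.56 to 8.12, and BTLA was at 14.6 in replicate 3 of group 3, with the others at 0.493 to 0.990.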

How the results depend on the processing

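In group 2b against group 2a, 6 genes were called in each of the 11 fits that left out 1 sample. The other alternatives gave 4 (all 4 groups in 1 fit, TIGIT and BTLA lost) to 7, except for 1 (TOX2) when the pools of group 2b were left out, where calls over all genes were 133 in place of 1102. They were 1909 with no threshold on the fold change. In group 2a against group 1, 0 were called under each alternative tried, while calls over all genes, 44 in edgeR, were 0 with DV200 as a covariate and in 8 of the 10 fits without 1 sample (76 without replicate 4 of group 1, 29 without replicate 1 of group 2a), 264 in DESeq2 and 184 with all 4 groups in 1 fit. In group 3 against group 2b, the number of the 8 called was 0 with no count filter, in limma with a pseudocount of 1, 0.5 or 5, with all 4 groups in 1 fit, with DV200 as a covariate, with the replicate block, and with either the single-dog samples or the pools of group 2b alone. Without 1 sample it was 0 to 2, with BTLA added without replicate 3 of group 3. Calls over all genes there, 5 in edgeR, ranged from 0 to 50 (50 without replicate 3 of group 3), with 47 in DESeq2. In each case the cause was not tested.

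Some log2 fold changes changed sign. In group 2a against group 1, without replicates 3 and 4 of group 1 (an alternative chosen after the data had been seen), TOX was at 0.14, TOX2 at 0.96, CD96 at 1.89 and EOMES at 0.22. With DV200 as a covariate LAG3 was at -0.66, TIGIT at -0.56 and TBX21 at -1.89. In limma with a pseudocount of 1, 0.5 and 5, CD96 was at 0.93, 1.13 and 0.47, and TBX21 with a pseudocount of 1 and 0.5 at -0.16 and -0.31. Without 1 sample, LAG3 ranged from -0.10 to 0.55, TIGIT from -0.061 to 1.46, CD96 from -0.37 to 0.87 and TBX21 from -0.14 to 0.57. In group 2b against group 2a, TOX was at 0.010, 0.011 and 0.0087 in limma, at 0.062 without the pools of group 2b, and at -0.19 to 0.11 without 1 sample.

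The labels link no dogs across groups, and deviations of same-numbered samples from the group means correlated at -0.27 to 0.14, not all over 0.1, so the numbers were not taken to pair them. With the replicate block, the numbers of the 8 called were 0 in group 2a against group 1, 0 in group 3 against group 2b and 6 in group 2b against group 2a, with 0, 1 and 934 calls over all genes. CD96 was then at 0.67 in group 2a against group 1 and TOX at 0.048 in group 2b against group 2a.

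Per 100 CD3 counts, leaving out 1 sample gave 0 to 1 separated genes in group 2a against group 1 (1 without replicate 2 of group 1). In group 3 against group 2b it gave 0 to 1 (1 without replicate 3 of group 3 or replicate 1 of group 2b). In group 2b against group 2a it gave 1 to 3 (3 without replicate 4 of group 2a, 2 without replicate 6 of group 2b). With all samples, 0.0446%, 0.907% and 69.6% of all tested genes were separated, in the same order. Shares without 1 sample were not computed, so nothing is read from these counts. By ranks, the median within-group correlation of the genes with CD3 was 0.520 in place of 0.729, and that of BTLA with the B cell markers 0.655. Without 1 sample the latter was 0.532 (without replicate 3 of group 3) to 0.864, in place of 0.826. HAVCR2 and, in group 2a, TBX21 are limited by depth.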

Other observations

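Of the myeloid and dendritic cell markers, 2 of 15 tested were called higher and 1 lower by edgeR in group 2b against group 2a, with a median log2 fold change of 0.0048. C1QB and C1QC, chains of complement C1q made by macrophages, rose by 1.40 ± 0.293 and 1.19 ± 0.389 (SE; edgeR adjusted p = 0.00489 and 0.0498). FLT3, a receptor of dendritic cell development, was lower, at -2.55 ± 0.589 (edgeR adjusted p = 0.00891). It passed the count filter only with the counts of group 2a, so its values are a description. Of the endothelial and stromal markers, CLDN5, a tight junction protein of endothelium, rose by 1.16 ± 0.350 (edgeR adjusted p = 0.0361), and it was the 1 called gene of 9 tested.

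Of 3 granzymes, proteases of cytotoxic granules, GZMK passed the test between these areas, and whether it differed from the others was not tested. GZMK rose by 2.94 ± 0.418 (SE), from 477 ± 317 (SD, n = 5) to 3687 ± 1179 normalized counts (SD, n = 6; edgeR adjusted p = 0.000421). GZMA was at 0.12 ± 0.502 (edgeR adjusted p = 0.908) and GZMB at 1.48 ± 0.610 (edgeR adjusted p = 0.119). Between groups 3 and 2b, GZMK was at 0.03 ± 0.235 (edgeR adjusted p = 0.971).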
